A study of Ovis aries with 12 samples.

Results

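The HOX genes of sheep embryos were taken as every listed gene whose symbol is HOX followed by the cluster letter A, B, C or D and a paralog number. The rule found 27 genes of 26247 listed, of which 25 were among the 14595 genes with enough signal to test. HOXB13 and HOXC13 were not. RNA was sequenced in bulk from embryos (Ovis aries) that had been dissociated with enzymes, in 12 libraries. The groups, with 3 libraries each, were Hulunbuir Short-tail Sheep embryos at day 25, Ujumqin sheep embryos at day 25, Hulunbuir Short-tail Sheep embryos at day 16 and Ujumqin sheep embryos at day 16. Hulunbuir was the experimental breed and Ujumqin the control breed, and the series set out to follow embryo development in Mongolian sheep at both ages. No treatment was given to any group. Neither the origin of the replicates in separate ewes nor the removal of extraembryonic membranes is stated in the labels. The p-values therefore rest on the spread among the sequenced samples, part of which may be technical.

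HOX genes encode homeodomain transcription factors that give cells along the head-to-tail axis of a vertebrate embryo their regional identity. The genes lie in 4 clusters, and within a cluster the gene order, written as the paralog number, matches the order of their expression in time and along the axis. Low paralog numbers are switched on first and reach furthest forward, into the hindbrain, whereas high numbers act in the lumbar, sacral and tail regions, the hindlimb and the genital tubercle.

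By position, 8 of the 27 genes were anterior (paralogs 1 to 3), 9 central (4 to 8) and 10 posterior (9 to 13), and 8, 9 and 8 of them were tested. The HOXA genes described here (HOXA2, HOXA3, HOXA6 and HOXA10) lie on chromosome 4 of the Oar_v3.1 assembly. On the same assembly the HOXB genes (HOXB1 to HOXB7, HOXB9 and HOXB13) span 172.1 kb of chromosome 11 from 37337231 to 37509285, a longer stretch than those of HOXC and HOXD as listed. The HOXC genes (HOXC4, HOXC5, HOXC6 and HOXC10 to HOXC13) span 114.9 kb of chromosome 3 from 132314501 to 132429375. The HOXD genes (HOXD1, HOXD3, HOXD8, HOXD10, HOXD12 and HOXD13) span 95.5 kb of chromosome 2 from 132820016 to 132915560. A further 6 entries carry a HOX description (HOXA4, HOXA9, HOXB8, HOXC8, HOXC9 and HOXD4) but no symbol, so they fall outside the rule.

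Total gene counts per library were 32625184 to 39643588 in Hulunbuir at day 25, 30464606 to 33171681 in Ujumqin at day 25, 43131962 to 51241161 in Hulunbuir at day 16 and 49944437 to 55455815 in Ujumqin at day 16. The 27 HOX genes held 5306 to 22692 of them. The spread between replicates was wider at day 16, with a biological coefficient of variation over all genes of 18.1% at day 25, against 43.8% at day 16. A few HOX genes share their span with another listed entry, and because the use of strand in counting is not given in the sources used here, their values are less certain. HOXA6 lies wholly inside another entry on the same strand. HOXB6 and HOXD8 lie wholly opposite another entry, and 53.4% of HOXB3 does. Small overlaps on the same strand cover 5.7% of HOXC5 and 3.0% of HOXD3.

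Levels are given in FPKM, which divide fragments by gene length and library size, so that genes of different length can be compared. In HOXB and HOXC the lowest levels lay at the far posterior end (HOXB13 and HOXC11 to HOXC13), while HOXB9, HOXA10 and HOXC10, also posterior, were among the more abundant genes at day 25. HOXC4, which in mice helps to set the identity of neck and upper chest vertebrae, was the most abundant HOX transcript at day 25. It had 65.8, 64.1 and 62.6 FPKM in Hulunbuir and 71.8, 65.1 and 65.1 FPKM in Ujumqin at day 25. At day 16 the highest mean belonged to HOXB6 in Hulunbuir (31.3 ± 12.3 FPKM, SD, n = 3), equal within its spread to HOXB9 (31.3 ± 7.58). In Ujumqin at day 16 it belonged to HOXB9 (23.3 ± 6.89 FPKM), a gene that shapes the ribs in mice.

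**Figure D1:**
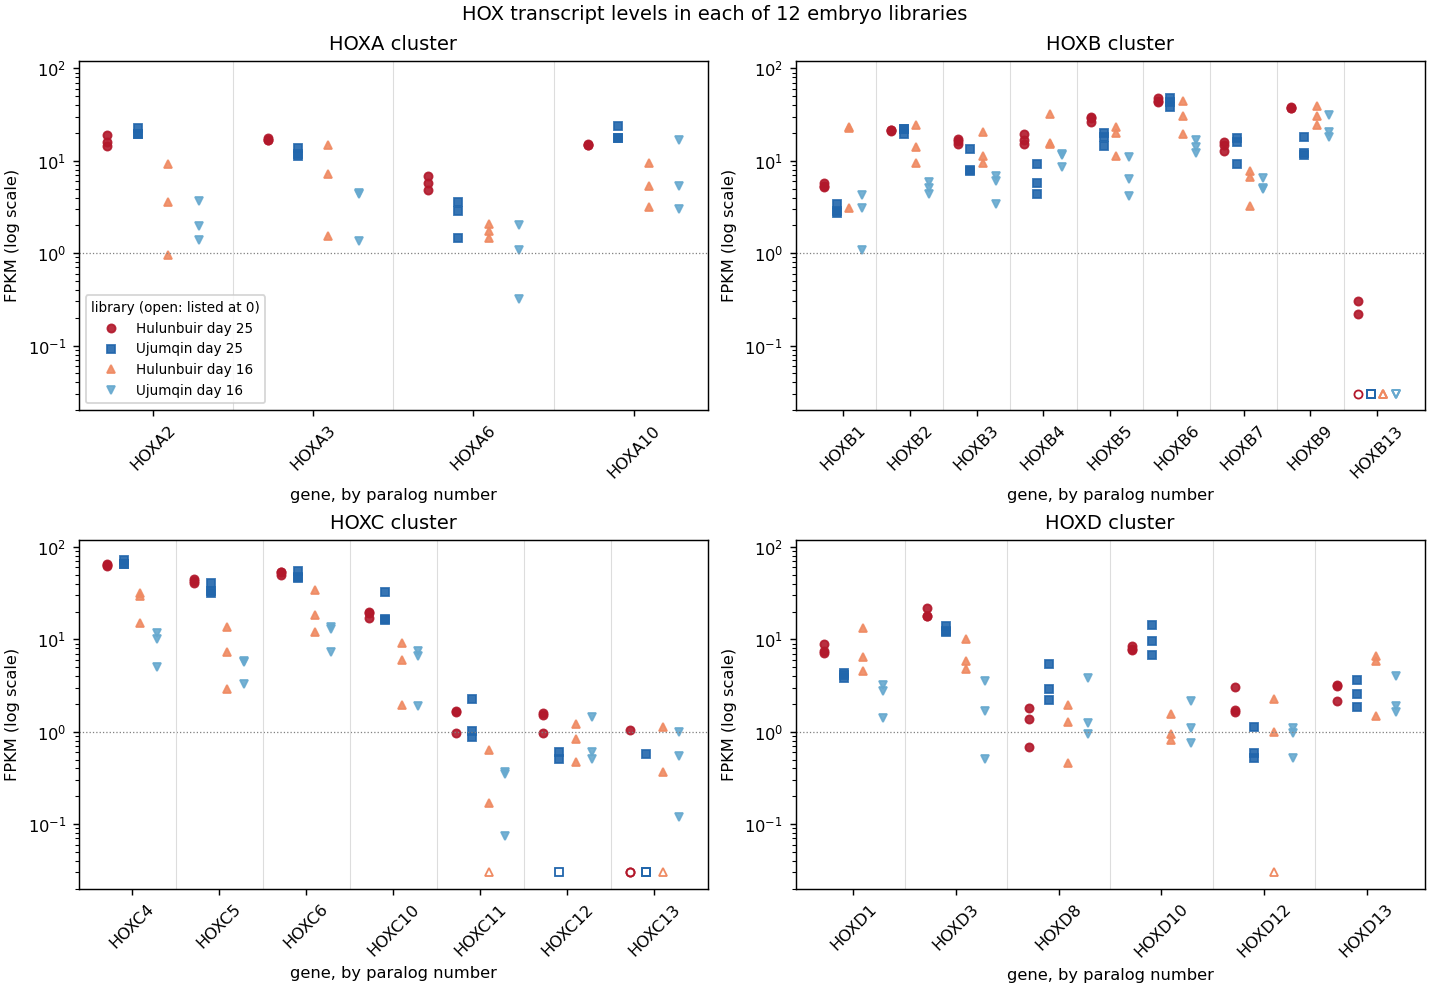
FPKM (log axis) of 26 of the 27 HOX genes in each of the 12 libraries, by cluster and paralog number, with Hulunbuir day 25, Ujumqin day 25, Hulunbuir day 16 and Ujumqin day 16 from left to right within a gene. Open symbols at the foot are libraries listed at 0, and the dotted line marks 1 FPKM. The HOXC4, HOXC5 and HOXC6 points at day 25 lie above those at day 16, whereas the HOXB9 points of Hulunbuir at day 25 lie inside the range of those at day 16.

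The leading gene of a cluster differed between groups. In HOXA it was HOXA3 in Hulunbuir at day 25 (17.1 ± 0.632 FPKM), HOXA2 in Ujumqin at day 25 (20.6 ± 1.96) and HOXA10 in Ujumqin at day 16 (8.40 ± 7.37). In HOXD it was HOXD3 in both breeds at day 25, with 19.2 ± 2.21 FPKM in Hulunbuir and 12.7 ± 0.964 in Ujumqin. At day 16 it was HOXD1 in Hulunbuir (8.08 ± 4.55) and HOXD13 in Ujumqin (2.53 ± 1.31), where HOXD1 had 2.46 ± 0.94. The SDs at day 16 are so wide that neighbours in these orders overlap, in HOXD of Ujumqin almost completely.

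At a level of 1 FPKM the most posterior gene reached was HOXA10, HOXB9 and HOXD13 in each of the 12 libraries. HOXD13 transcripts were thus at or above that level in both breeds at both ages. HOXD13, needed for digits and external genitalia in mice and humans, had 3.19, 2.16 and 3.13 FPKM in Hulunbuir and 3.60, 1.85 and 2.54 FPKM in Ujumqin at day 25. At day 16 it had 5.85, 6.62 and 1.47 FPKM in Hulunbuir and 1.91, 1.63 and 4.04 FPKM in Ujumqin. The groups overlap, and it was called in no comparison. In HOXC the most posterior gene reached varied from paralog 10 to 13 between libraries.

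The genes at the far end of HOXB and HOXC were near the limit of detection. HOXB13, whose loss in mice lengthens the tail, was listed at 12, 0 and 8 counts in Hulunbuir at day 25, or 0.302, 0 and 0.217 FPKM, and at 0 in the other 9 libraries. With 1 of 3 Hulunbuir libraries at 0 and no test, this is a value and not a difference between breeds. HOXC13, which acts in hair and tail vertebrae of mice, had 0, 1.03 and 0 FPKM in Hulunbuir and 0, 0.569 and 0 FPKM in Ujumqin at day 25. It had 0.368, 1.13 and 0 FPKM in Hulunbuir and 0.551, 0.992 and 0.120 FPKM in Ujumqin at day 16, so in each group replicate 2 was the highest.

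The summed level of all 27 genes was 466 ± 9.42 FPKM in Hulunbuir and 397 ± 47.9 in Ujumqin at day 25, and 277 ± 57.0 in Hulunbuir and 137 ± 30.9 in Ujumqin at day 16 (SD, n = 3 each). Its make-up by cluster also differed between ages. HOXC held 38.8% ± 0.544 of it in Hulunbuir and 44.3% ± 0.581 in Ujumqin at day 25, against 22.3% ± 4.07 and 23.0% ± 3.72 in the same breeds at day 16. HOXB held 39.9% ± 0.470 in Hulunbuir and 32.5% ± 0.560 in Ujumqin at day 25, against 56.2% ± 4.85 and 55.7% ± 10.8 at day 16. For both clusters no day 25 library overlapped a day 16 library. The group means of the HOXA and HOXD shares lay between 7.90% and 14.7%. In bulk RNA, fewer cells of a type and less RNA per cell cannot be told apart, so these are shares of transcripts and not of cells.

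**Figure D2:**
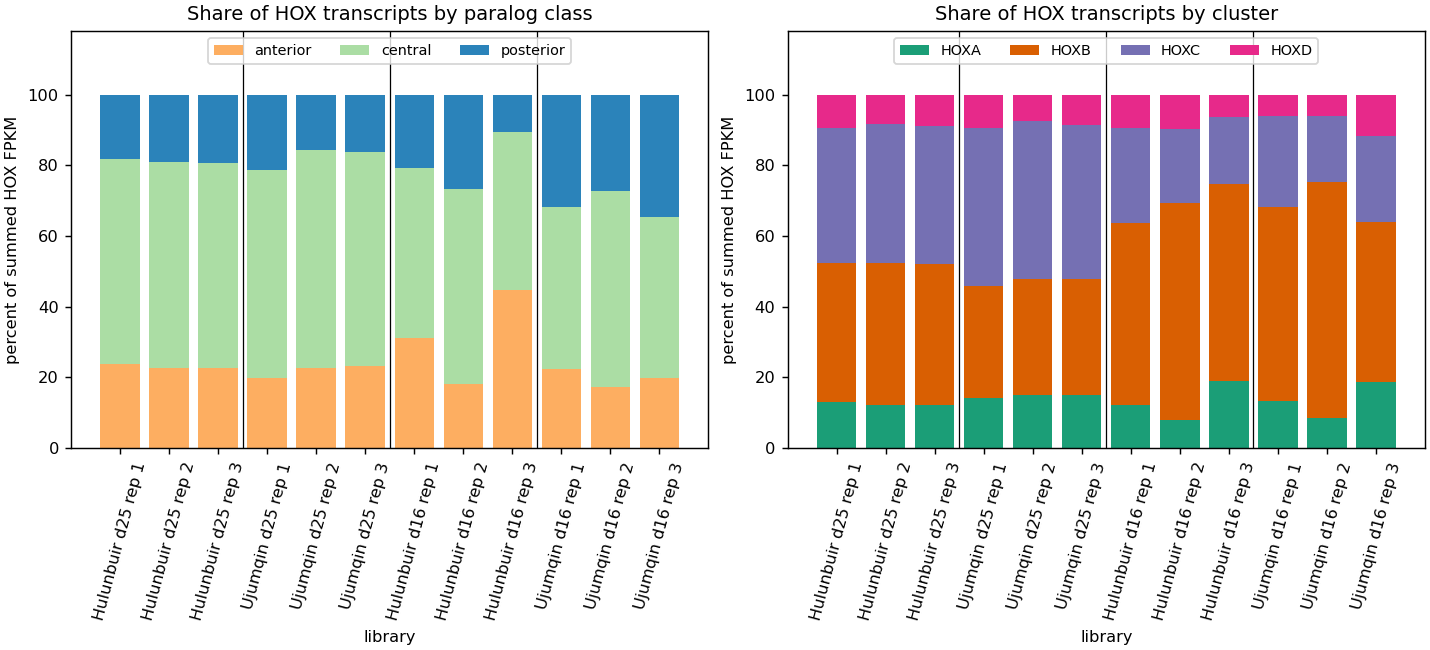
Stacked bars give, for each library (replicates 1 to 3 of Hulunbuir day 25, Ujumqin day 25, Hulunbuir day 16 and Ujumqin day 16), the percent of the summed HOX FPKM held by anterior, central and posterior genes (left) and by the 4 clusters (right). The HOXC share is larger at day 25 in every library, and the anterior share of the 3 Hulunbuir day 16 libraries runs from 18.2% to 44.7%.

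Between day 25 and day 16, the log2 change of HOX genes was positive in 19 of 25 in Hulunbuir and 20 of 25 in Ujumqin, and fewer passed the test. A gene was called when its adjusted p in edgeR's quasi-likelihood test, corrected over all 14595 genes, was under 0.05. In Hulunbuir 8 of 25 HOX genes were higher at day 25 and 2 lower, where 18.9% of all genes tested were higher and 21.6% lower (40.5% called). In Ujumqin 16 were higher and 0 lower, where 30.7% of all genes were higher and 32.9% lower (63.6% called). The median log2 change of the 25 genes was 0.75 in Hulunbuir and 1.42 in Ujumqin, beside -0.04 and -0.07 over all genes. The 8 genes higher in both breeds were HOXA2, HOXA6, HOXB7, HOXC4, HOXC5, HOXC6, HOXD3 and HOXD10. A further 8 passed in Ujumqin alone (HOXA3, HOXA10, HOXB2, HOXB3, HOXB5, HOXB6, HOXC10 and HOXC11), a difference between breeds that holds up only where the test of that difference, given below, passed.

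Among anterior genes HOXA2, the selector of second pharyngeal arch identity in mice, had the largest rise. It had 19.1, 14.3 and 16.1 FPKM in Hulunbuir at day 25, against 3.58, 0.957 and 9.28 FPKM at day 16. In Ujumqin it had 19.6, 19.3 and 22.8 FPKM at day 25, against 3.64, 1.40 and 1.98 FPKM at day 16. In neither breed did the ages overlap, and HOXA2 rose by 1.79 ± 0.55 (log2, SE) in Hulunbuir (adjusted p = 0.0243) and 3.27 ± 0.59 in Ujumqin (adjusted p = 0.000593). HOXD3, which in mice acts in the first neck vertebra, was 1.34 ± 0.47 higher in Hulunbuir (adjusted p = 0.0402) and 2.89 ± 0.50 higher in Ujumqin (adjusted p = 0.000455).

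HOXB1 went the other way in Hulunbuir. It patterns the hindbrain and is among the first HOX genes to be transcribed in a mouse embryo. HOXB1 had 5.69, 5.37 and 5.21 FPKM in Hulunbuir at day 25, against 23.4, 3.11 and 22.5 FPKM at day 16. Replicates 1 and 3 at day 16 lie far above day 25, while replicate 2 at day 16 lies below the day 25 range. HOXB1 fell by 1.67 ± 0.58 on the log2 scale (adjusted p = 0.0393).

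In Ujumqin HOXB1 was not called. It had 2.70, 2.83 and 3.38 FPKM at day 25, against 4.28, 1.08 and 3.11 FPKM at day 16, with a log2 change of 0.23 ± 0.57 (adjusted p = 0.745). The ages overlap. The difference in age change between breeds was -1.9 ± 0.81 for HOXB1 (adjusted p = 0.120), so it did not pass.

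The central HOXC genes HOXC4, HOXC5 and HOXC6 rose in both breeds. HOXC5 had 43.1, 44.8 and 40.9 FPKM in Hulunbuir at day 25, against 7.28, 2.91 and 13.5 FPKM at day 16. In Ujumqin it had 40.5, 33.5 and 31.9 FPKM at day 25, against 5.88, 3.25 and 5.64 FPKM at day 16. Every day 25 value is more than the highest day 16 value of its breed. HOXC5 rose by 2.36 ± 0.37 in Hulunbuir (adjusted p = 0.000693) and 2.98 ± 0.38 in Ujumqin (adjusted p = 6.23e-05). HOXC6, which in mice marks the level of the forelimb, rose by 1.09 ± 0.34 in Hulunbuir (adjusted p = 0.0256) and 2.28 ± 0.36 in Ujumqin (adjusted p = 0.000229).

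Of the posterior genes HOXD10, which helps to specify lumbar motor neurons in mice, rose in both breeds. It had 7.92, 8.54 and 7.67 FPKM in Hulunbuir at day 25, against 1.54, 0.952 and 0.808 FPKM at day 16. In Ujumqin it had 14.3, 6.77 and 9.68 FPKM at day 25, against 1.11, 0.750 and 2.16 FPKM at day 16. The ages are well apart, and the log2 change was 2.69 ± 0.42 in Hulunbuir (adjusted p = 0.000613) and 3.07 ± 0.42 in Ujumqin (adjusted p = 9.36e-05). The log2 change of HOXC10, another lumbar gene, missed the threshold in Hulunbuir at 1.53 ± 0.57 (adjusted p = 0.0512) and passed it in Ujumqin at 2.16 ± 0.58 (adjusted p = 0.0072).

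Of the 2 genes with paralog number 4 under the rule, HOXC4 rose in both breeds, whereas HOXB4, which acts in neck vertebrae and blood stem cells of mice, was not called. HOXB4 had log2 changes of -0.41 ± 0.29 in Hulunbuir (adjusted p = 0.282) and -0.60 ± 0.30 in Ujumqin (adjusted p = 0.0995). The HOXA4 and HOXD4 entries, outside the rule, had positive changes, at 1.82 and 1.05 in Hulunbuir and 3.91 and 1.48 in Ujumqin. Those of the HOXD4 entry were not called. The difference between HOXC4 and HOXB4 was not tested. HOXB9 was not called either, at 0.09 ± 0.26 in Hulunbuir (adjusted p = 0.816) and -0.61 ± 0.27 in Ujumqin (adjusted p = 0.0626). The other genes called in neither breed were HOXC12, HOXD1, HOXD8, HOXD12 and HOXD13. The rank correlation of the age change with paralog number over the 25 genes was weak in both breeds, with Spearman rho of 0.27 in Hulunbuir and -0.14 in Ujumqin. These are descriptions across genes that share libraries and are not independent.

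**Figure D3:**
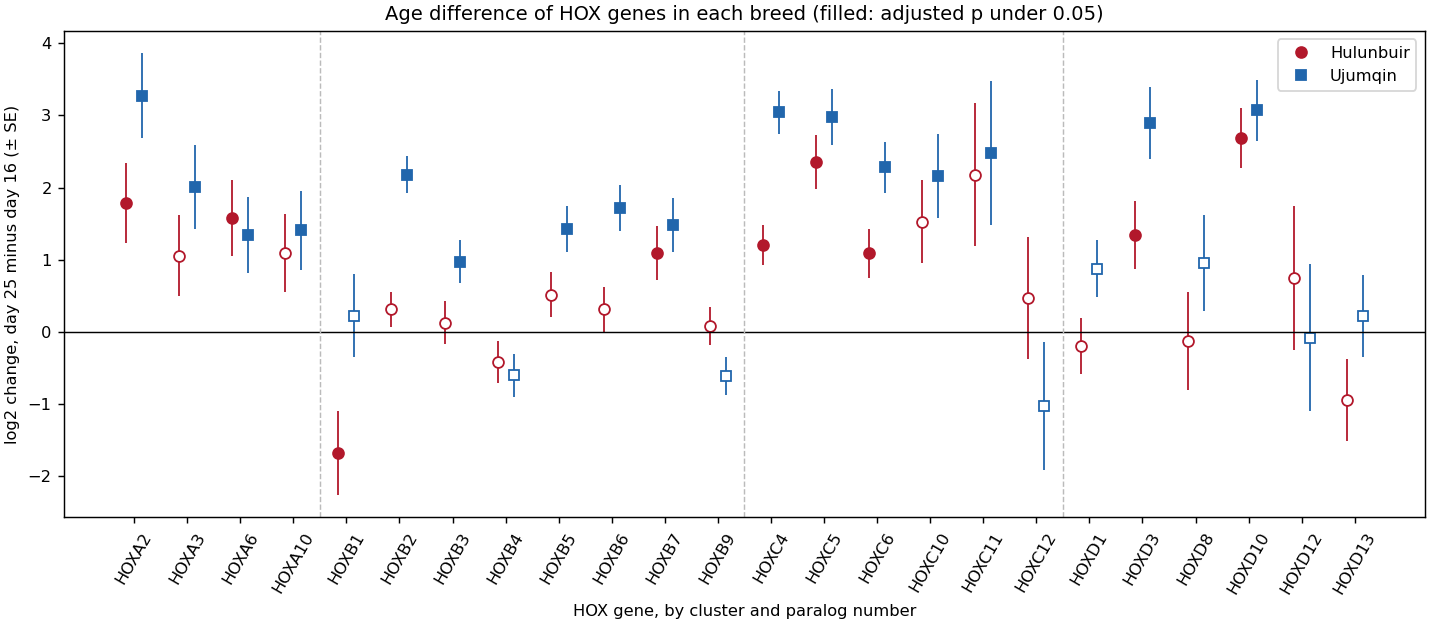
Log2 change, day 25 minus day 16, with its SE for 24 of the 25 tested HOX genes in Hulunbuir (circles) and Ujumqin (squares), in order of cluster and paralog number, filled where the adjusted p was under 0.05. The Hulunbuir circle of HOXB1 (-1.67) is filled and lies below 0, and the HOXC4 square (3.04) stands above its circle (1.21).

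Markers of other tissues also moved with age. The summed FPKM of the 9 of 14 listed trophoblast markers found in the table was 283 to 312 in Hulunbuir and 270 to 483 in Ujumqin at day 25, against 1419 to 4479 and 1547 to 3408 at day 16. Most of it came from the epithelial keratin KRT8. KRT8 had 253 to 280 FPKM in Hulunbuir and 222 to 410 in Ujumqin at day 25. At day 16 it had 1320 to 4247 and 1384 to 3002. Of 8 tested trophoblast markers 4 were called lower in Hulunbuir and 7 in Ujumqin, and 0 higher. For 6 of 12 neural tube markers the summed FPKM was 563 to 568 in Hulunbuir and 382 to 435 in Ujumqin at day 25, against 86.4 to 336 and 35.7 to 97.6 at day 16. Calls of blood markers went in opposite directions in the 2 breeds. Those of yolk sac and liver markers were lower in Ujumqin and mixed in Hulunbuir. Of 7 tested erythroid markers 7 rose in Hulunbuir, with a median log2 change of 5.37, and 5 fell in Ujumqin, with a median of -1.21. In Ujumqin the other 2 were not called. The summed FPKM of the list there overlapped between ages, at 1931 to 2430 at day 25, against 914 to 4158 at day 16. Most of that sum was HBZ, with a mean of 2029 FPKM at day 25, against 1618 FPKM at day 16. Of 12 yolk sac and liver markers 4 rose, 2 fell and 6 were not called in Hulunbuir, and 10 fell in Ujumqin. Over all genes 18.9% were higher and 21.6% lower in Hulunbuir, and 30.7% higher and 32.9% lower in Ujumqin. The part of these markers in the age difference of the HOX genes was not tested. In Hulunbuir 4 of the 10, among them HOXC4, HOXC5 and HOXD10, stayed called whichever library was left out, and leaving out Hulunbuir day 25 replicates 1, 2 or 3 left 4, 5 and 4 HOX calls. Calls of the other 6 were lost in at least 1 such fit, HOXB1 in 8 of 12 (adjusted p up to 0.135, without Hulunbuir day 16 replicate 1), HOXD3 in 9 (up to 0.121) and HOXA2 in 3 (up to 0.0728). In a fit of the 6 Hulunbuir libraries alone 6 of the 10 were called, beside 39.1% of all genes. In Ujumqin 12 of the 16 stayed called. HOXA6, HOXA10 and HOXC11 each lost the call in 9 or 10 of the 12 fits that left out 1 library, and HOXB3 lost it without Ujumqin day 25 replicate 1 (adjusted p = 0.0861).

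The test of whether the age change differed between breeds called 3 of 25 HOX genes, all with a smaller rise in Hulunbuir, where 19.2% of all genes tested were called (8.89% positive and 10.3% negative). HOXC4 (ENSOARG00000016271) had 31.8, 14.9 and 29.7 FPKM in Hulunbuir at day 16, against 11.8, 5.03 and 10.1 FPKM in Ujumqin at day 16. With the day 25 levels given above nearly equal, its rise was 1.21 ± 0.28 in Hulunbuir (adjusted p = 0.00567) and 3.04 ± 0.30 in Ujumqin (adjusted p = 1.06e-05). The difference of the 2 changes was -1.84 ± 0.39 (adjusted p = 0.0102).

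HOXB2 (ENSOARG00000007134), active in hindbrain segments and facial motor neurons of mice, had the smallest adjusted p of the interaction among HOX genes. It had 21.0, 21.5 and 21.8 FPKM in Hulunbuir and 19.3, 21.8 and 21.9 FPKM in Ujumqin at day 25. At day 16 it had 14.3, 9.37 and 24.5 FPKM in Hulunbuir and 5.09, 5.85 and 4.33 FPKM in Ujumqin. The breeds overlap at day 25 and not at day 16. The log2 change with age was 0.31 ± 0.25 in Hulunbuir (adjusted p = 0.330) and 2.18 ± 0.26 in Ujumqin (adjusted p = 3.48e-05), and the difference was -1.87 ± 0.35 (adjusted p = 0.00579).

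HOXB6 (ENSOARG00000007002), a trunk-level gene, had 47.8, 44.7 and 43.2 FPKM in Hulunbuir and 47.5, 38.7 and 43.6 FPKM in Ujumqin at day 25. At day 16 it had 30.4, 44.0 and 19.5 FPKM in Hulunbuir and 14.2, 17.0 and 12 FPKM in Ujumqin. Its difference between breeds was -1.40 ± 0.44 (adjusted p = 0.0463), and that call was lost in 10 of the 12 fits that left out 1 library (adjusted p up to 0.101). HOXB2 and HOXC4 stayed called in all 12, with adjusted p up to 0.022 and 0.032. All 8 anterior genes had a negative difference, with a median of -1.52, beside -0.91 in central, -0.31 in posterior and -0.03 in all genes. Leaving out Hulunbuir day 16 replicate 2 gave 5 calls in place of 3.

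At day 16 no HOX gene was called between Hulunbuir and Ujumqin by edgeR's test on the 6 libraries of that age, where 0.0206% of all genes were called. At an unadjusted p under 0.05 the count was 10 of 25, beside 20.2% of all genes. The log2 changes, Hulunbuir minus Ujumqin, were positive in 8 of 8 anterior, 8 of 9 central and 4 of 8 posterior genes. Their medians stepped down along the axis, at 1.58, 0.88 and 0.03, beside 0.01 over all genes. Over the 25 genes the rank correlation with paralog number was -0.786. Within clusters it was -0.857 in HOXB (8 genes), -0.943 in HOXC (6) and -0.371 in HOXD (6). With the 6 described entries added it was -0.806 over 31 genes. These values carry no p, since genes of a cluster are neighbours measured in the same 6 libraries.

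The size of this gradient rested much on 1 library. Without Hulunbuir day 16 replicate 3 the rank correlation was -0.451 and the medians were 1.37, 0.58 and 0.55, and without Hulunbuir day 16 replicate 2 it was -0.878. HOXB1 had the largest difference, 2.39 ± 0.75 (adjusted p = 0.165). Its replicate 2 in Hulunbuir overlaps the Ujumqin values, as the FPKM given above show. HOXB2, whose 3 Hulunbuir values all exceed the Ujumqin ones, was 1.52 ± 0.34 higher (adjusted p = 0.122). HOXD1 had 13.2, 4.57 and 6.45 FPKM in Hulunbuir, against 2.78, 1.41 and 3.21 FPKM in Ujumqin, with no overlap and a log2 change of 1.63 ± 0.51 (adjusted p = 0.164).

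Posterior genes showed no common direction at day 16. HOXA10, which suppresses ribs at lumbar level in mice, had 5.32, 9.35 and 3.19 FPKM in Hulunbuir, against 5.40, 3.00 and 16.8 FPKM in Ujumqin, so that the ranges overlap (log2 change -0.47 ± 0.68, adjusted p = 0.721). HOXC10 had 9.07, 5.95 and 1.95 FPKM in Hulunbuir, against 7.48, 1.9 and 6.61 FPKM in Ujumqin (log2 change 0.07 ± 0.70, adjusted p = 0.968). With SEs this wide, differences of about their size could not have been detected.

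**Figure D4:**
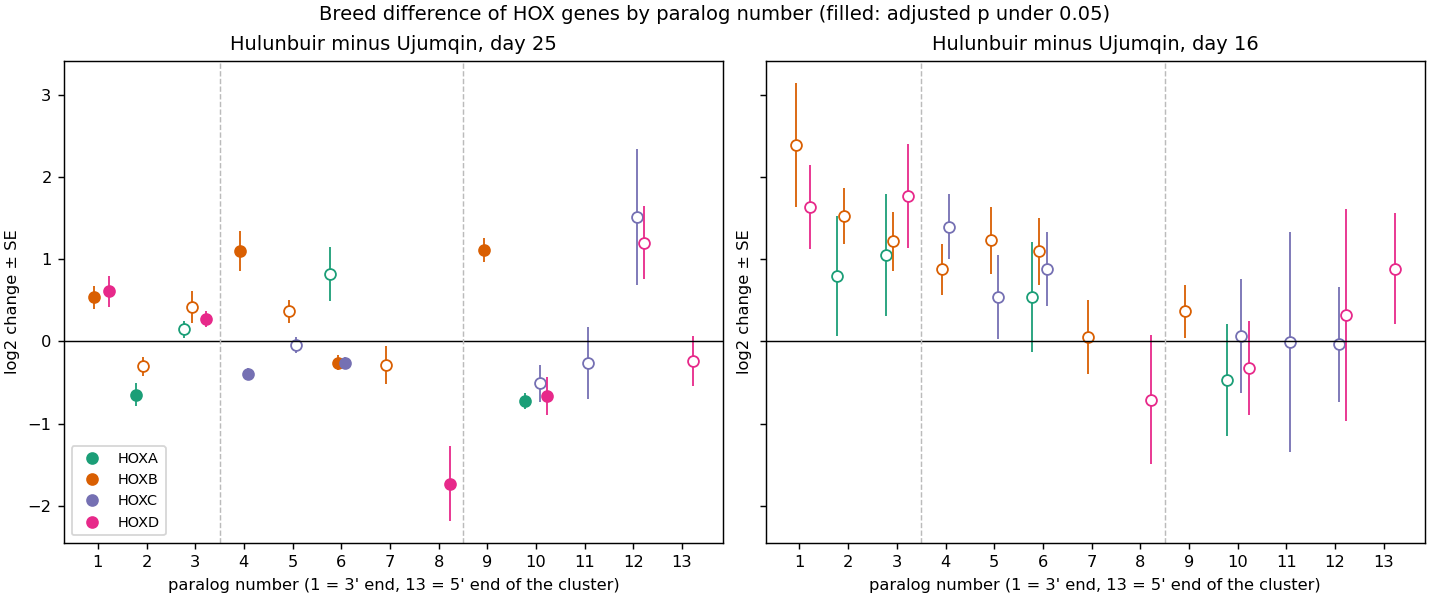
Log2 change, Hulunbuir minus Ujumqin, with its SE for 24 of the 25 tested HOX genes against paralog number at day 25 (left) and day 16 (right), coloured by cluster and filled where the adjusted p was under 0.05. At day 16 the points step down from 2.39 (HOXB1) towards 0 with rising paralog number, with no filled point, and at day 25 filled points lie on both sides of 0.

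The count of day 16 calls depended on how the spread was estimated. Same-numbered libraries of the 2 breeds deviated together at day 16, although the labels state no pairing. With the replicate number as a block 2 HOX genes were called higher, where 0.891% of all genes were higher. They were HOXB1 at 2.21 ± 0.26 (adjusted p = 0.041) and HOXC4 at 1.43 ± 0.20 (adjusted p = 0.049). When the less variable day 25 libraries shared in the estimate of spread, 9 HOX genes were called higher, among them HOXB1, HOXB2, HOXB3, HOXB5, HOXB6, HOXC4, HOXD1 and HOXD3, where 8.46% of all genes were higher. DESeq2 on the 6 libraries called 8 of those 9 higher and not HOXB6, where 4.72% of all genes were higher. Voom with a weight per group called HOXB2 and HOXC4 higher, where 1.65% of all genes were. Under each of these settings 0 HOX genes were called lower.

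Among the Hulunbuir day 16 libraries the HOX profile itself differed. Summed anterior levels were 98.0, 38.3 and 136 FPKM in replicates 1, 2 and 3 in Hulunbuir, against 34.8, 17.5 and 30.1 FPKM in Ujumqin. Summed posterior levels were 65.3, 56.6 and 32.3 FPKM in Hulunbuir, against 49.7, 27.6 and 53.1 FPKM in Ujumqin. Hulunbuir replicate 3 was highest of its group in 6 of 8 anterior genes and lowest in 9 of 9 posterior genes with a value. Replicate 2 was lowest in 7 of 8 anterior genes. The mean paralog number, weighted by FPKM, was 5.08, 6.05 and 4.02 in these 3 libraries, against 5.93, 6.01 and 6.33 in Ujumqin at day 16. At day 25 it was 5.40 ± 0.0406 in Hulunbuir and 5.44 ± 0.227 in Ujumqin.

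**Figure D5:**
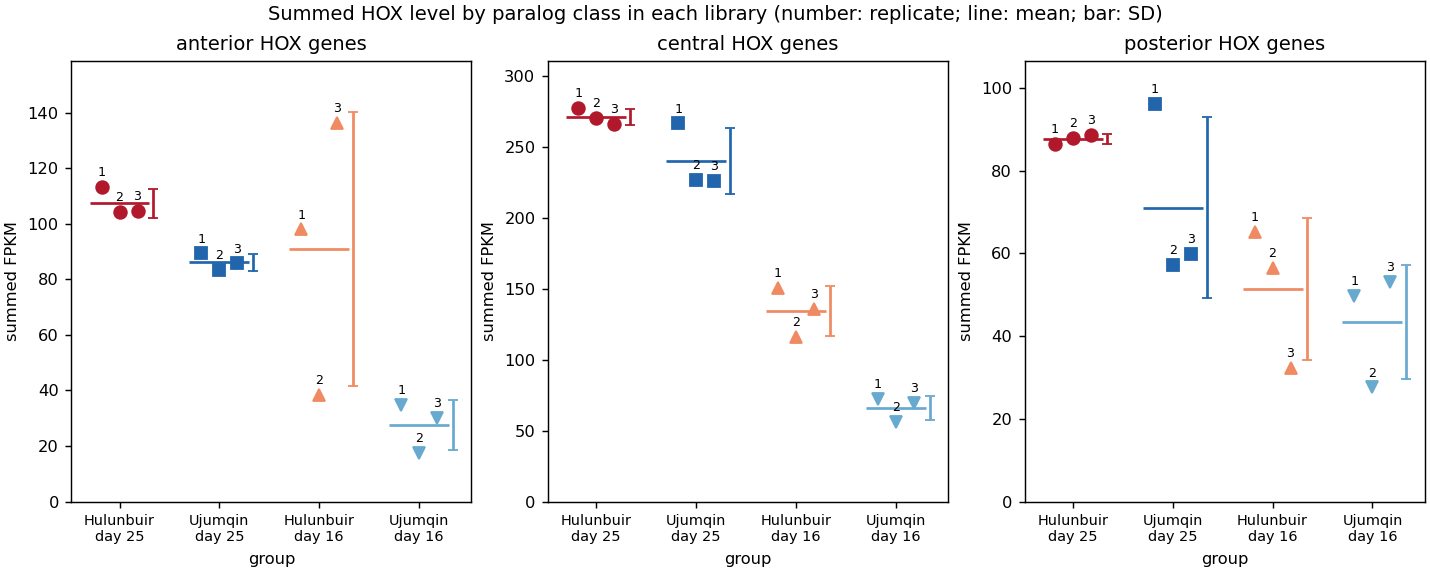
Summed FPKM of anterior, central and posterior HOX genes in each library, with the mean (line) and SD (bar) of each group and the replicate number beside each point. Hulunbuir day 16 replicate 3 is the highest of its group for anterior genes (136 FPKM) and the lowest for posterior genes (32.3 FPKM), and the Hulunbuir day 25 libraries lie close together in each class.

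Markers of embryonic and extraembryonic tissue differed between the same libraries. Neural tube markers summed to 223, 86.4 and 336 FPKM in Hulunbuir replicates 1, 2 and 3 at day 16, against 95.9, 35.7 and 97.6 FPKM in Ujumqin. Most of each of these sums came from 1 gene, NES, at 177, 74.2 and 227 FPKM in Hulunbuir, against 78.0, 27.6 and 81.0 FPKM in Ujumqin. Somite markers (7 of 9) summed to 40.3, 11.4 and 94.5 FPKM in Hulunbuir, against 14.1, 5.34 and 27.5 FPKM in Ujumqin. Both sums rank the 3 Hulunbuir libraries in the order of their anterior HOX sum, with replicate 3 highest and replicate 2 lowest. In Ujumqin replicate 2 was again lowest in all 3 sums, but replicate 3 was highest in both marker sums and replicate 1 in the anterior HOX sum. Their part in the HOX differences was not tested. Heart markers (3 of 6), at 471 to 1069 FPKM in Hulunbuir, against 55.2 to 182 FPKM in Ujumqin, were also apart between breeds.

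Summed levels of yolk sac and liver markers and of erythroid markers were lower in Hulunbuir at day 16, although 0 of 12 and 0 of 7 markers were called. Yolk sac and liver markers (12 of 12) summed to 4447 to 13658 FPKM in Hulunbuir, against 25408 to 62721 FPKM in Ujumqin, with the Hulunbuir maximum in replicate 2. AHSG, a secreted liver protein, gave the largest part of the sum, at 1552, 7086 and 2767 FPKM in Hulunbuir, against 12963, 13954 and 33166 FPKM in Ujumqin. The endoderm factor SOX17 of the same list was higher in Hulunbuir, at 10.4, 10.6 and 10 FPKM, against 2.26, 1.70 and 6.67 FPKM in Ujumqin, and it too was not called. FOXA2, also of that list, had the higher mean in Hulunbuir, at 8.56 against 5.87 FPKM, with overlap between the breeds. Erythroid markers (7 of 9) summed to 66.5 to 154 FPKM in Hulunbuir, against 914 to 4158 FPKM in Ujumqin. The breeds did not overlap in the sum of either list. The sums for trophoblast, limb bud, endometrium and epiblast did overlap. Trophoblast markers summed to 1419 to 4479 FPKM in Hulunbuir, against 1547 to 3408 FPKM in Ujumqin, most of it from the epithelial keratin KRT8, at 1320 to 4247 FPKM in Hulunbuir, against 1384 to 3002 FPKM in Ujumqin. Single markers of that list stood apart in Ujumqin replicates 1 and 2. PAG4, a pregnancy-associated glycoprotein of the ruminant trophoblast, had 0.0772, 0.377 and 0.0084 FPKM in Hulunbuir, against 27.7, 102 and 0.0256 FPKM in Ujumqin. PTGS2, a prostaglandin synthase, had 4.4, 2.81 and 4.94 FPKM in Hulunbuir, against 80.1, 174 and 1.34 FPKM in Ujumqin. In both genes Ujumqin replicate 3 lay within or below the Hulunbuir range. Limb bud markers (8 of 9) summed to 158 to 292 FPKM in Hulunbuir, against 166 to 192 FPKM in Ujumqin. Endometrium markers (5 of 7) summed to 34.9 to 192 FPKM in Hulunbuir, against 183 to 289 FPKM in Ujumqin, and the 1 of 5 epiblast markers in the table had 9.37 to 16.2 FPKM, against 12.8 to 17.8 FPKM. Their part in the HOX differences was not tested either.

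Between the breeds at day 25, 12 of 25 HOX genes were called, 5 of them higher in Hulunbuir and 7 of them lower, where 46.0% of all genes tested were called (23.3% higher and 22.7% lower). The higher genes were HOXB1, HOXB4, HOXB9, HOXD1 and HOXD3, and the lower ones HOXA2, HOXA10, HOXB6, HOXC4, HOXC6, HOXD8 and HOXD10. The median over the 25 genes was -0.04, beside 0.03 over all genes, and the rank correlation with paralog number was -0.0795. No position class moved as one, with medians of 0.21, -0.26 and -0.25 in anterior, central and posterior genes. By cluster, 3 of 8 HOXB genes were higher and 1 lower, while 0 of 6 HOXC genes were higher and 2 lower.

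HOXB9 and HOXB4 differed by about the same amount. HOXB9 had 37.1, 37.2 and 38.5 FPKM in Hulunbuir at day 25, against 18.2, 12.1 and 11.6 FPKM in Ujumqin at day 25. HOXB4 had 16.9, 15.3 and 19.3 FPKM in Hulunbuir, against 9.12, 5.79 and 4.33 FPKM in Ujumqin. The breeds were apart in both genes. The log2 change was 1.11 ± 0.15 for HOXB9 (adjusted p = 0.000622) and 1.10 ± 0.24 for HOXB4 (adjusted p = 0.00664). These 2 calls were also made when all 12 libraries set the spread, a fit in which none of the other 10 passed and 7.88% of all genes were higher.

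HOXD8 had the largest fall, although it lies inside an entry on the opposite strand. It had 1.80, 0.681 and 1.39 FPKM in Hulunbuir, against 5.43, 2.19 and 2.92 FPKM in Ujumqin, with no overlap, and fell by 1.73 ± 0.45 on the log2 scale (adjusted p = 0.0138). HOXA10 had 15, 14.7 and 15.1 FPKM in Hulunbuir, against 24.0, 17.7 and 17.8 FPKM in Ujumqin, and fell by 0.73 ± 0.10 (adjusted p = 0.000583). HOXA2 fell by 0.65 ± 0.14 (adjusted p = 0.00538), although its highest Hulunbuir value of 19.1 FPKM lay close to its lowest Ujumqin value of 19.3 FPKM. The other called falls were smaller in size than that of HOXA10.

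The split between higher and lower genes at day 25 depends on the scale. TMM scaling, used for the counts, put the median log2 change of all genes at 0.03, whereas on the deposited FPKM scale it was 0.29. With limma on log2(FPKM + 1), 12 HOX genes were higher and 2 lower, beside 42.6% and 10.2% of all genes, and HOXB6 and HOXC6 were each 0.07 higher in Hulunbuir on that scale, not lower. HOXC4, lower by 0.40 ± 0.07 in the count fit (adjusted p = 0.00235), differed by -0.07 ± 0.06 there (adjusted p = 0.415). HOXA2 and HOXD10 also lost their calls there, at -0.31 ± 0.12 (adjusted p = 0.0720) and -0.26 ± 0.23 (adjusted p = 0.372). HOXB1, HOXB4, HOXB9, HOXD1 and HOXD3 were higher and HOXA10 and HOXD8 lower on both scales.

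Leaving out any Hulunbuir day 25 replicate left 7 HOX calls, 3 higher and 4 lower. HOXA2, HOXA10, HOXB4, HOXB9, HOXC4 and HOXD8 stayed called whichever day 25 library was left out, and HOXB1, HOXB6, HOXC6, HOXD1, HOXD3 and HOXD10 lost the call in at least 1. HOXB6, HOXD3 and HOXD10 each lost it in 5 of the 6 fits that left out 1 day 25 library, with adjusted p up to 0.160, 0.191 and 0.116. Ujumqin day 25 replicate 1 was the highest of its group in 8 of 9 posterior genes with a value, with 32.2 FPKM of HOXC10 against 16.7 and 16.2 FPKM in the other replicates. Erythroid markers summed to 16266 to 19215 FPKM in Hulunbuir at day 25, against 1931 to 2430 FPKM in Ujumqin at day 25. Yolk sac and liver markers summed to 20494 to 21999 FPKM in Hulunbuir, against 5330 to 8182 FPKM in Ujumqin, and limb bud markers to 131 to 137 FPKM in Hulunbuir, against 135 to 213 FPKM in Ujumqin. Endometrium markers summed to 35.0 to 43.3 FPKM in Hulunbuir, where OXTR was at 0, against 39.8 to 116 FPKM in Ujumqin. Their part in the result was not tested.

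PBX, MEIS and PKNOX proteins are homeodomain partners that bind DNA together with HOX proteins. Of 9 listed, 8 were in the table and 7 were tested. At day 25 relative to day 16, 1 was called in Hulunbuir, as higher, and 5 in Ujumqin, 4 of them higher, beside 40.5% and 63.6% of all genes called in these breeds. MEIS3, a partner of HOX proteins in the hindbrain of frogs, had 79.7, 80.3 and 78.4 FPKM in Hulunbuir and 96.3, 104 and 93.7 FPKM in Ujumqin at day 25. At day 16 it had 57.8, 30.1 and 42.3 FPKM in Hulunbuir and 15.9, 13.8 and 19.1 FPKM in Ujumqin. It rose by 0.73 ± 0.18 in Hulunbuir (adjusted p = 0.00888) and 2.74 ± 0.19 in Ujumqin (adjusted p = 2.14e-06), and the difference of -2.01 ± 0.26 passed (adjusted p = 0.00119). PBX2 also had a negative difference, -0.73 ± 0.18 (adjusted p = 0.0192). Between breeds 0 of 7 were called at day 16, and at day 25 3 were higher in Hulunbuir, among them MEIS2 and PKNOX2, and PBX2, MEIS1 and MEIS3 were lower, beside 46.0% of all genes called. MEIS1 had 27.5, 26.2 and 29.4 FPKM in Hulunbuir, against 27.9, 28.9 and 28.1 FPKM in Ujumqin at day 25. Its FPKM thus overlapped between breeds, and its call as lower was made on the TMM-scaled counts.

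Of 20 listed symbols for axis signals and regulators upstream of HOX genes, with TBXT and T for the same gene, 18 were tested. In Hulunbuir 0 were higher at day 25 and 7 lower, and in Ujumqin 6 were higher and 7 lower. Over all genes the higher share was 18.9% in Hulunbuir and 30.7% in Ujumqin, and the lower share 21.6% and 32.9%, so the Ujumqin shares of the list are near those of all genes. The same 7 fell in both breeds: CDX2 and CDX4, homeobox activators of central HOX genes, TBXT, the brachyury factor of the primitive streak and tail bud, and LIN28A, LIN28B, SALL4 and NR6A1, which are high in early embryonic progenitors. LIN28A had 2.86, 3.27 and 3.60 FPKM in Hulunbuir and 1.02, 1.24 and 0.582 FPKM in Ujumqin at day 25, against 474, 156 and 413 FPKM in Hulunbuir and 186, 71.1 and 155 FPKM in Ujumqin at day 16. It fell by 6.85 ± 0.48 in Hulunbuir (adjusted p = 6.26e-06) and 7.0 ± 0.50 in Ujumqin (adjusted p = 2.30e-06). NR6A1, an orphan receptor that acts on trunk HOX genes and vertebral number in mice, fell by 5.30 ± 0.33 in Hulunbuir (adjusted p = 4.21e-06) and 6.32 ± 0.36 in Ujumqin (adjusted p = 8.18e-07). CDX4 was listed at 0 in all 6 day 25 libraries. CDX2 is also a trophoblast gene, so its fall is shared with that marker list.

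CYP26B1 and CYP26C1 degrade retinoic acid, an inducer of anterior HOX genes, and their age change differed between breeds. CYP26C1 had 2.57, 2.20 and 2.16 FPKM in Hulunbuir and 1.32, 2.33 and 2.47 FPKM in Ujumqin at day 25. At day 16 it had 3.92, 1.52 and 3.82 FPKM in Hulunbuir and 0.780, 0.675 and 0.587 FPKM in Ujumqin, so the breeds were apart at day 16 and overlapped at day 25. The interaction called 4 of the 18, beside 19.2% of all genes, all negative: CYP26B1 (-2.12 ± 0.58, adjusted p = 0.028), CYP26C1 (-2.26 ± 0.46, adjusted p = 0.00857), the growth factor FGF8 (-2.16 ± 0.60, adjusted p = 0.028) and the hindbrain boundary factor GBX2 (-2.69 ± 0.54, adjusted p = 0.00749). The list's other retinoic acid enzymes were not called there, with -0.0056 ± 1.11 for CYP26A1 (adjusted p = 0.9999) and 0.20 ± 0.86 for ALDH1A2 (adjusted p = 0.895). Between breeds 0 were called at day 16. At day 25, where 23.3% of all genes were higher and 22.7% lower, 5 were higher in Hulunbuir, among them ALDH1A2, which makes retinoic acid, with an adjusted p of 0.000528, and 1 was lower.

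Polycomb proteins keep HOX genes silent and trithorax proteins keep them active. Of 27 listed chromatin regulators 21 were tested. With age 10 were called in Hulunbuir, 5 in each direction, and 17 in Ujumqin, 8 of them higher and 9 of them lower, beside 40.5% and 63.6% of all genes called, so the list had no common direction. PCGF2, a Polycomb subunit whose loss shifts vertebral identity in mice, had 113, 119 and 115 FPKM in Hulunbuir and 154, 148 and 147 FPKM in Ujumqin at day 25, against 85.2, 46.8 and 92.6 FPKM in Hulunbuir and 43.2, 37.3 and 39.9 FPKM in Ujumqin at day 16. It was 0.70 ± 0.07 lower in Hulunbuir at day 25 (adjusted p = 0.000146), and the interaction was -1.53 ± 0.23 (adjusted p = 0.00195). In Hulunbuir relative to Ujumqin 9 rose and 3 fell at day 25 and 0 were called at day 16, and the interaction called 1 positive and 4 negative, beside 46.0% of all genes called at day 25 and 19.2% in the interaction.

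Of 20 listed symbols of genes beside the clusters, with LNPK and LNP for the same gene, 11 were tested. With age 5 were called in Hulunbuir, 3 of them higher, and 4 in Ujumqin, 1 of them higher, beside 40.5% and 63.6% of all genes. Between breeds 3 were called at day 25, 1 of them higher in Hulunbuir, beside 46.0% of all genes, and 0 at day 16. MTX2, a mitochondrial gene next to HOXD, rose by 0.65 ± 0.11 in Hulunbuir (adjusted p = 0.00102) and 0.68 ± 0.11 in Ujumqin (adjusted p = 0.000289). EVX1, the homeobox gene beyond the posterior end of HOXA, fell by 2.36 ± 0.72 in Hulunbuir (adjusted p = 0.0221) and 1.79 ± 0.71 in Ujumqin (adjusted p = 0.0451). NFE2, an erythroid factor near HOXC, had the 1 interaction call of the list, 4.56 ± 0.67 (adjusted p = 0.00185), and moves with the erythroid markers given above.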

How the data were processed

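Per the labels, total RNA was isolated with TRIzol and sequenced as Illumina libraries. The submitters' processing notes name cutadapt 1.9, FastQC and the Oar_v3.1 assembly. How reads were aligned and counted, and with what use of strand, is not given in the sources used here. The authors deposited 1 table with a count and an FPKM per gene and library. The deposited counts were treated as estimated counts already rounded up to whole numbers: over 199 low counts, the count exceeded the value implied by the deposited FPKM by a median of 0.514, and by 0 to 1 in 99.5%. FPKM written as 0.0001 at a count of 0 were set to 0. There were 0 columns left over.

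Genes with at least 1 FPKM in at least 3 of 12 libraries were tested with edgeR 4.0.16 (R 4.3.3) on the whole table: TMM scaling, quasi-likelihood fit, two-sided, Benjamini-Hochberg adjustment over 14595 genes, threshold 0.05. Because the spread differed between ages, breed contrasts used the 6 libraries of an age. Age contrasts and their difference between breeds (the interaction) used all 12 with 4 group means. Each SE was derived from the F statistic (change over root F). Changes are from counts and levels are deposited FPKM, so their ratios differ. Shares and sums are over FPKM. The fit was tested on simulated data.

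Replicate numbers come from the sample titles. Same-numbered libraries of the 2 breeds deviated together at day 16 (r = 0.156, 0.307 and 0.381) but not at day 25 (0.00892, 0.0444 and 0.0228). The labels state no pairing between breeds. These r come from the same libraries as the tests, so they cannot show that the numbers pair the samples. The main tests used no block, and the replicate number entered only as an alternative. Alternatives were a block for the replicate number, DESeq2 1.42.0, RLE scaling, no filter, limma 3.58.1 (voom with group weights, and log2(FPKM + 1) or log2(FPKM + 0.1)), other libraries setting the spread, and each library left out. Members and lists were chosen with earlier results of these data known. Values in every library are given for up to 8 HOX genes with the smallest adjusted p per contrast, the ends of clusters, the most abundant genes and interaction calls; of these, those the results turn on are printed, and up to 3 genes per list and contrast. Of the genes counted, 1 HOX gene and 1 cofactor are not reported here. Sequences are not shown. Counting error alone is small at this depth except for genes near 1 FPKM.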

Additional observations from a re-analysis of the deposited data

Results flagged for a closer look

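For 3 of 25 HOX genes the age change, day 25 minus day 16, differed between the breeds. This was a smaller share than the 19.2% of all genes tested that were called. The test was edgeR's quasi-likelihood test of the difference itself, with Benjamini-Hochberg adjustment over all genes tested. The difference of the log2 changes, Hulunbuir minus Ujumqin, was -1.87 for HOXB2 (adjusted p = 0.00579), -1.84 for HOXC4 (adjusted p = 0.0102) and -1.40 for HOXB6 (adjusted p = 0.0463). In each of them the 3 Ujumqin libraries at day 16 were the lowest of the 4 groups. At day 25 the FPKM of the breeds overlapped in all 3 genes, while the test of the 6 day 25 libraries called HOXC4 (-0.40, adjusted p = 0.00235) and HOXB6 (-0.26, adjusted p = 0.0456) lower in Hulunbuir. The HOXB6 difference lost its call in 10 of the 12 fits that left out 1 library. Of the markers tested, 7 of 7 erythroid, 9 of 12 yolk sac and liver and 1 of 8 trophoblast ones had a called positive difference, beside 8.89% of all genes. Median differences were negative in neural tube (-1.26), somite (-1.56), heart (-1.47) and limb bud markers (-0.92). Called negative differences there numbered 1 of 6, 0 of 7, 1 of 3 and 1 of 8, beside 10.3% of all genes. The part of these markers in the HOX differences was not tested.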

How the results depend on the processing

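The day 16 breed count was 0 HOX genes, beside 0.0206% of all genes. It became 9 with all 12 libraries setting the spread (8.46% of all genes higher) and 8 with DESeq2 (4.72%). It was 2 with the replicate block (0.891%) and 2 with voom (1.65%). Under RLE scaling, no filter, FPKM scales and each library left out it was 0. The day 25 breed count of 12 (46.0% of all genes called) became 2 with all 12 libraries, both of them higher (7.88% of all genes higher). Shares given for these alternative breed fits are of genes called higher alone, unlike the 0.0206% and 46.0% called in either direction. The day 25 breed count ranged from 7 to 14 with 1 library left out. The age count in Hulunbuir, 10 (40.5%), became 6 in the 6 libraries of that breed (39.1%). It ranged from 4 to 11 with 1 library left out, and that in Ujumqin, 16 (63.6%), ranged from 13 to 17. The interaction count of 3 (19.2%) ranged from 2 to 5. The share of all genes called thus moved with the setting too, and for the remaining fits it is not given here. With the replicate block the other counts were 10 at day 25, 9 for age in Hulunbuir, 14 for age in Ujumqin and 3 for the interaction. There same-numbered libraries showed little shared deviation, with r of -0.0617 to 0.0912 across ages. At day 25 the change turned positive with limma on log2(FPKM + 1) and log2(FPKM + 0.1) for HOXB6 (0.0663 and 0.0677), HOXC5 (0.281 and 0.288, adjusted p = 0.0477 and 0.0499) and HOXC6 (0.0657 and 0.0669). It also turned positive for HOXB2 (0.0283 and 0.0296), HOXB7 (0.0709 and 0.0787), HOXC11 (0.0625 and 0.127) and HOXD13 (0.0776 and 0.110). These further genes were called neither in the count fit nor on the FPKM scales. FPKM carry another scaling of the libraries, with the median of all genes at 0.29 (pseudocount 1) in place of 0.03. With log2 weights the mean paralog number was 5.84 in Ujumqin at day 16 and 5.63 in Hulunbuir at day 25. At 3 FPKM HOXD13 was reached in 6 of 12 libraries and no HOXD gene in 2 Ujumqin day 16 libraries, so the median of the most posterior HOXD paralog number was 11.5, against 13 at 1 FPKM. Adding the 6 described entries gave 0, 14, 12, 19 and 4 calls, an alternative chosen after seeing the data. Other causes were not tested. Depth limits the genes near 1 FPKM (HOXC11, HOXC12, HOXD12), and the wide spread at day 16 limits every breed comparison there.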

Other observations

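The 6 entries described as HOX genes without a symbol filled gaps in the paralog numbers of the clusters. The HOXD4 entry overlaps HOXD3 by 576 bases on the same strand (3.0% of HOXD3), so their values may not be fully separate. The HOXA4 entry (ENSOARG00000009789) averaged 41.2 FPKM in Hulunbuir and 52.7 FPKM in Ujumqin at day 25, and 10.6 FPKM in Hulunbuir and 3.87 FPKM in Ujumqin at day 16 (n = 3 each). It rose by 1.82 ± 0.32 in Hulunbuir (adjusted p = 0.00118) and 3.91 ± 0.35 in Ujumqin (adjusted p = 6.48e-06), and the difference of -2.09 ± 0.44 passed in edgeR's test (adjusted p = 0.0096). That makes it the HOX entry with the largest called difference between breeds in the age change. The HOXD4 entry (ENSOARG00000017483) averaged 9.87 FPKM in Hulunbuir and 3.44 FPKM in Ujumqin at day 25, a log2 change of 1.20 ± 0.25 (adjusted p = 0.00481), beside -0.40 for HOXC4 and -0.68 for the HOXA4 entry. With HOXB4, also higher, the 4 genes of paralog number 4 thus split 2 higher and 2 lower in Hulunbuir at day 25, although HOXC4 was not called lower on the FPKM scale. Both entries were picked out after their values were seen.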
